A study of Mus musculus with 10 samples.

Results

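The heat shock and DnaJ chaperone genes of the mouse were followed here on Affymetrix arrays of skin keratinocytes. Members were all probe sets, the array's measuring units, whose platform annotation gives exactly 1 gene symbol that begins with Hspa, Hspb, Hspd, Hspe, Hsph, Hsp90, Dnaja, Dnajb or Dnajc and a following number or letter, with Hspg2, Hspbap1 and Hspbp1 left out. They came to 169 of 45037 probe sets and 70 of 18193 named genes. The HSP70 and HSP110 proteins contributed 41 probe sets of 14 genes, the J-domain proteins 13 of 4 DNAJA genes, 23 of 13 DNAJB genes and 68 of 27 DNAJC genes, HSP90 7 of 2 genes, the mitochondrial chaperonin 3 of 2 genes and the small heat shock proteins 14 of 8 genes. A gene was read by up to 6 probe sets, and 25 genes by 1, so probe sets of a gene share their target and are no replicates. Where a gene is given 1 value, it is that of its brightest probe set (mean log2 intensity of the 10 arrays), unless another is named.

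The study compared keratinocytes lacking RhoA, a small GTPase of the actin cytoskeleton, with control keratinocytes in epidermis and in primary culture. The knockout cells (KO) had the genotype RhoA fl/fl K5 cre, while the controls (titled wildtype) were RhoA fl/+ K5 cre, so both carried floxed RhoA and the Cre recombinase, and the controls had 1 floxed allele. The K5 promoter is active in basal keratinocytes and their progeny, so RhoA in other skin cells of a preparation is not a target of this Cre. Cells freshly taken from the epidermis gave 2 control and 2 KO arrays, and primary cultures gave 3 of each. Titles call the samples biological replicates and name no animals or cultures, so the spread that p-values rest on may be technical. Age and strain are not given in the labels. In such bulk RNA, fewer cells of a type and less RNA per cell cannot be told apart.

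HSP70 proteins bind and release unfolded protein segments in a cycle driven by ATP. J-domain proteins bring clients to HSP70 and stimulate its ATPase, HSP110 proteins exchange its nucleotide, HSP90 acts later on kinases and receptors, small heat shock proteins hold unfolding proteins without ATP, and the HSP60 chaperonin with its co-chaperonin folds proteins in mitochondria. Heat and other protein stress activate heat shock factor 1, which binds inverted repeats of the letters GAA, called heat shock elements, while a load of unfolded protein in the endoplasmic reticulum (ER) activates factors that bind the ER stress element. In skin, HSP27, the product of Hspb1, is known for its high level in differentiating keratinocytes.

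Promoter sequences were searched for the letters of heat shock elements and of the ER stress element. The RefSeq promoter table (build GRCm38.p6) held 57 of the 70 member genes, and the 250 bases before each start were searched on both strands. Not in the table were Dnajc30, Hspb2, Dnajc11, Dnajc18, Dnajc5, Hspa8, Dnajc12, Dnajc5b, Hsp90aa1, Dnajc2, Dnajc22, Hspa13 and Hspa9. Below are the windows of the inducible HSP70 pair Hspa1a and Hspa1b, of Hspb1, one of the genes whose KO effect differed between conditions, and of the ER HSP70 Hspa5. Capitals mark GAANNTTC, a pair of heat shock repeats, in the first 3 windows and the ER stress element, CCAAT and CCACG with 9 bases between them, in the last.
Hspa1a, chr17:34972157-34972406, minus strand: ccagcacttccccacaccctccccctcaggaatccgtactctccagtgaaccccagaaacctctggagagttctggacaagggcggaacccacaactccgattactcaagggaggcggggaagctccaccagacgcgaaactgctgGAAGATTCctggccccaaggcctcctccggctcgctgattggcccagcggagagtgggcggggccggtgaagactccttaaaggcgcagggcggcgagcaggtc
Hspa1b, chr17:34959239-34959488, minus strand: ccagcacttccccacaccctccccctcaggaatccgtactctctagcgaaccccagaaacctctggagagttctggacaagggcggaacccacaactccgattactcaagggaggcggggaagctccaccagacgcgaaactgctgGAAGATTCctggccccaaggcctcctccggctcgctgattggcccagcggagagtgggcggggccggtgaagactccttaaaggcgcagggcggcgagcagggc
Hspb1, chr5:135887669-135887918, plus strand: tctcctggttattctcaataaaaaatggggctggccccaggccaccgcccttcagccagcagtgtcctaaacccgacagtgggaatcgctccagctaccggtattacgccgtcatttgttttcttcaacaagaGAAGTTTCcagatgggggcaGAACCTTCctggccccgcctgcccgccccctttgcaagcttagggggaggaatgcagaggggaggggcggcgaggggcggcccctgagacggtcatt
Hspa5, chr2:34771840-34772089, plus strand: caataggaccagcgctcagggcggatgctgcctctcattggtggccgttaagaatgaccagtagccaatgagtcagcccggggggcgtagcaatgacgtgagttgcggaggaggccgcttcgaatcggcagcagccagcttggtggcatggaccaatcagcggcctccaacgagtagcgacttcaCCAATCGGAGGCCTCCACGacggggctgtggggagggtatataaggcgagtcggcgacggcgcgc
The Hspa1a and Hspa1b windows were identical at 247 of 250 bases (98.8%), and the coding parts of these genes are near-identical too, so probe sets of either may read both and their separate values are uncertain.

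GAANNTTC lay in 11 of the 57 member genes (Dnaja1, Dnaja4, Dnajb6, Dnajc27, Hspa1a, Hspa1b, Hspb1, Hspb3, Hspb6, Hspd1 and Hspe1), against 7.73% of all 27025 genes of the table. The tail-to-tail form TTCNNGAA lay in 6 (Dnajb4, Dnajb6, Dnajc10, Hspd1, Hspe1 and Hsph1), against 8.11% of all. Longer runs, GAANNTTC followed after 2 more bases by GAA on either strand, which contain both shorter forms, lay in 3 members (Dnajb6, Hspd1 and Hspe1), against 0.514% of all. The ER stress element lay in 3 members, Hspa5, Hsp90b1 and Dnajc3, against 0.13% of all. Hspd1 and Hspe1, the chaperonin and its co-chaperonin, are neighbours whose windows share a run of 4 repeats, shown here with the repeats in capitals, and the ER elements of Hsp90b1, one of them on the other strand, and of Dnajc3 follow with the fixed letters in capitals.
Hspe1, chr1:55088059-55088076, plus strand: TTCtaGAAccTTCcgGAA
Hsp90b1 distal, chr10:86705638-86705656, minus strand: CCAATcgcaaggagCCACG
Hsp90b1 proximal, chr10:86705533-86705551, minus strand: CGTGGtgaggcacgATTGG
Dnajc3, chr14:118937827-118937845, plus strand: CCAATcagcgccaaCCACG
Of the 10 classical heat-inducible genes, Dnajb1, Hspb8 and Hspa4l held neither short form, and Hspa8 and Hsp90aa1 were not in the table. On the ER list of 8 genes (Hspa5, Hspa13, Hsp90b1, Dnajb9, Dnajb11, Dnajc1, Dnajc3 and Dnajc10), Dnajb9, Dnajb11, Dnajc1 and Dnajc10 held no ER stress element. Dnajb14 and Dnajc18, J-proteins of the ER membrane, are not on that list. These matches describe letters in a window, and none was tested as a binding site.

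The values were the authors' linear intensities, made with MAS5 per the submitters' processing notes. Fresh and cultured arrays lay on different scales: array medians were 64.1 to 64.8 in fresh and 7.75 to 8 in cultured cells, and 0.102% to 0.14% against 53.9% to 54.3% of probe sets read below 10. KO was therefore compared with control within each condition, and fresh with cultured cells by rank within each array. The labelled cell type was borne out by its markers in fresh cells, where 11 of 11 measured keratinocyte markers lay above the median of every array. In culture 9 of 11 did, Krt15 and Krt1 being the others. Markers of other cells were also read in fresh cells. There 5 of 5 measured T cell markers and 8 of 10 Langerhans and myeloid markers lay above the median of every array. In culture 1 of each list did. No endothelial marker (0 of 5) lay above the median on every array of a condition, and their sum was 157 to 168 in fresh and 22.5 to 24.1 in cultured cells. Fresh KO replicate 2 stood apart: its summed signal over 13 hair follicle markers was 48191 against 729 to 1854 on the other fresh arrays, with melanocyte markers at 4941 against 1177 to 1486. Langerhans and myeloid markers differed between the fresh genotypes in their sums, 23862 and 18978 in controls and 15760 and 7499 in KO replicates 1 and 2. H2-Aa, H2-Eb1, H2-Ab1 and Cd74 made up most of these sums. They were lower in KO without overlap, as were Tyrobp, Csf1r and Lyz2. Cd207 overlapped (1416 and 965 in controls, 1019 and 466 in KO), as did Ptprc and Itgam.

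A probe set was tested in a condition where it exceeded the array median on at least 2 arrays of that condition. This held for 130 member probe sets in culture (55 genes) and 130 in fresh cells (61 genes), with 119 tested in both and 28 in neither. The 7 genes tested in neither condition were Hspb3, Hspb7, Hspb9, Hspa1l, Hspa12b, Dnajb7 and Dnajc5g, most of them known from muscle, heart or testis. Hspa1l, the testis member of the HSP70 cluster and likewise chosen after its values were seen, read 22.4, 26.5, 32.4 and 22.6 on the fresh arrays and 5.60 to 5.79 on the cultured ones. Hspb2 and Dnajc5b were tested in culture only, and Dnajb3, Dnajb8, Dnajb13, Dnajc6, Dnajc22, Dnajc27, Dnajc28 and Hspa12a in fresh cells only. Untested member probe sets read 3.48 to 11.8 in culture and 14.7 to 67.6 in fresh cells, and each exceeded the array median on at most 1 array of that condition.

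Fresh RhoA-null keratinocytes gave lower signals than controls for most heat-inducible chaperones, but no member passed limma's test, a linear model with a pooled variance, at an adjusted p of 0.05. Of 130 member probe sets tested, 0 were called, as were 0 of all 22893 (0.0%). At an unadjusted p under 0.05, 19 members were lower (14.6%, background 6.89%) and 3 higher (2.31%, background 6.01%). Both KO arrays lay below both controls for 43 members (33.1%, background 23.5%) and above them for 24 (18.5%, background 23.5%). The median log2 difference, KO minus control, was -0.08 over the members and 0.00 over all probe sets tested, and 82 members were below 0 (63.1%, background 50.1%) and 48 above (36.9%, background 49.9%).

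The classical heat-inducible genes, a list of 10 (Hspa1a, Hspa1b, Hspb1, Hsph1, Dnajb1, Dnaja1, Hsp90aa1, Hspa8, Hspa4l and Hspb8), were among the lower members. In fresh cells 9 of 10 were below 0 (background 50.1%), with a median of -0.18, the exception being Hspa4l. Of these 9, 7 had an unadjusted p under 0.05 (background 6.89%) and groups without overlap (background 23.5%). Relative to the control mean, the median of the 10 was -0.24 in KO replicate 1 and -0.18 in KO replicate 2, so both KO arrays were below the controls, as were both in the Langerhans and myeloid marker sum. In culture 6 of the 10 were below 0 (background 52.8%), with a median of -0.05.

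**Figure D1:**
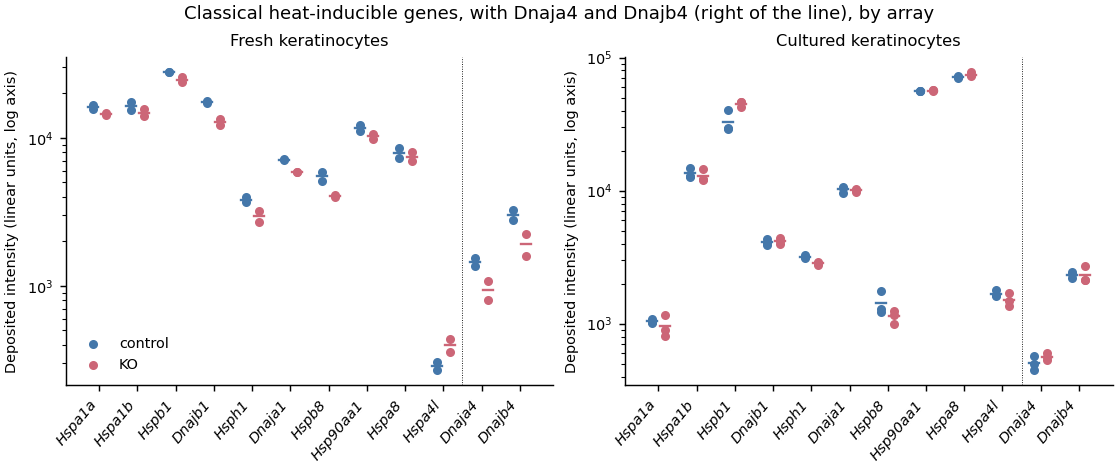
Deposited intensity (linear units on a log axis) of the 10 classical heat-inducible genes, and of Dnaja4 and Dnajb4 right of the dotted line, on each array, with fresh cells on the left and cultured cells on the right. Points are arrays, blue for control and red for KO, and short lines are group means. In fresh cells the red points lie below the blue ones for 7 of the 10 listed genes and for Dnaja4 and Dnajb4, while in culture most pairs of groups overlap and Hspb1 is higher in KO.

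Among J-domain proteins of the cytosol, Dnajb1, the main stress-induced partner of HSP70, read 17151 and 17605 in fresh controls against 13367 and 12164 in fresh KO. The groups did not overlap, and KO was 1.36-fold lower (log2 -0.45, SE 0.06, limma adjusted p = 0.242). Its other probe set gave the same picture, with 14919 and 13769 against 12282 and 10528 (log2 -0.33, SE 0.09, limma adjusted p = 0.308). Dnaja4, a further cytosolic partner, read 978 and 997 in controls and 632 and 553 in KO on the probe set with the smallest p. Both KO arrays were well below both controls (1.67-fold, log2 -0.74, SE 0.11, limma adjusted p = 0.244), and the gene's other 2 probe sets were also below without overlap (log2 -0.64 and -0.43). Dnaja1, a partner of the constitutive HSP70, read 7219 and 7031 in controls and 5891 and 5907 in KO. The pairs were tight and apart (log2 -0.27, SE 0.06, limma adjusted p = 0.287). Dnajb4, chosen after its values were seen, read 2773 and 3231 in controls against 2246 and 1595 in KO (log2 -0.66, SE 0.18, limma adjusted p = 0.312). Again neither KO array reached a control.

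The largest of these differences was in Dnajc6, which encodes auxilin, the J-protein that uncoats clathrin vesicles. On the 1 probe set tested of the gene's 4, fresh controls read 339 and 432 and fresh KO cells 134 and 145. The groups were far apart (2.74-fold, log2 -1.45, SE 0.16), yet the limma adjusted p was 0.185. On cultured arrays the same probe set lay at the floor, at 6.32 to 6.43, with no order between genotypes.

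The HSP70 proteins differed less. Hspa1a read 15639 and 16647 in fresh controls and 14367 and 14791 in KO (log2 -0.15, SE 0.06, limma adjusted p = 0.375), so KO was 1.11-fold lower without overlap. Hspa1b read 15486 and 17457 against 14035 and 15618, with overlap (log2 -0.15, SE 0.09). Hspa8, the constitutive HSP70, read 7343 and 8515 against 6994 and 7964 and overlapped (log2 -0.08, SE 0.10). Hsph1, an HSP110 nucleotide exchange factor, read 3957 and 3689 in controls and 3201 and 2715 in KO. Its KO arrays were both lower (log2 -0.37, SE 0.11, limma adjusted p = 0.314).

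Small heat shock proteins were below 0 in 7 of 7 probe sets tested in fresh cells, 5 of them without overlap, against 50.1% and 23.5% of all probe sets. They read 4 genes, Hspb1, Hspb6, Hspb8 and Hspb11, which were grouped by symbol alone. Those 5 were all of Hspb1 and Hspb8. Hspb8, which works with BAG3 in autophagy, read 5086 and 5885 in controls and 4142 and 4015 in KO. Both KO values were lower (1.34-fold, log2 -0.42, SE 0.09, limma adjusted p = 0.283). Hspb1 read 27841 and 27629 against 25724 and 23821. This was a small difference without overlap (log2 -0.16, SE 0.05, limma adjusted p = 0.334). For Hsp90aa1, the inducible cytosolic HSP90, controls read 11134 and 12211 and KO 9791 and 10631, again without overlap (log2 -0.19, SE 0.08, limma adjusted p = 0.382). Another Hsp90aa1 probe set had a low single array: 9418 and 9064 in controls, 7458 in KO replicate 1 and 4535 in KO replicate 2 (log2 -0.67, SE 0.23, limma adjusted p = 0.346).

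Above 0 in fresh KO were 48 of 130 member probe sets (36.9%, background 49.9%). Of these 48, 5 were on the heat-inducible list, which held 29 of the 130. Of 13 mitochondrial probe sets tested 10 were above 0 (background 49.9%), with a median of 0.06. Dnajc15, a J-protein of the mitochondrial import motor, read 838 and 762 in controls and 1001 and 1031 in KO. The KO arrays were higher (log2 0.35, SE 0.10, limma adjusted p = 0.320). Dnajc18, a J-protein of the ER membrane, read 102 and 92.3 against 132 and 127 (log2 0.42, SE 0.14, limma adjusted p = 0.339). Dnajc10, an ER J-protein with thioredoxin domains, read 479 and 418 against 549 and 548 (log2 0.29, SE 0.12, limma adjusted p = 0.399). Neither gene's groups overlapped. Dnaja2, a constitutive HSP70 partner, read 4158 and 4029 against 4571 and 4615 (log2 0.17, SE 0.07, limma adjusted p = 0.394). Hspa4l, an HSP110 family member, read 304 and 270 against 439 and 356, higher without overlap (log2 0.46, SE 0.16, limma adjusted p = 0.342).

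The fresh count depended on 1 array. Without KO replicate 1, the remaining KO array being the one with the hair follicle signal and assumed to vary like the controls, limma called 15 member probe sets, all lower (11.6%), among 945 probe sets in all (4.2%). They belonged to Hsp90aa1, Dnajb1, Dnajb4 and Dnaja4 with 2 each and to Dnajc21, Dnajc6, Hspb8, Hsp90b1, Dnajc5, Dnajc3 and Dnajb14 with 1 each. Without KO replicate 2 limma called 0 members (background 0.0489%), while 15 were lower (11.8%, background 5.6%) and 7 higher (5.51%, background 5.32%) at an unadjusted p under 0.05. In 1 fit over all 10 arrays, Dnajb1 (adjusted p = 0.0320) and Dnajc6 (adjusted p = 0.000922) passed, 2 of 130 members (1.54%, background 1.95%). Immediate early genes, a list of 16 stress and growth response transcripts such as Fos, Egr1 and Atf3, were also below 0 in fresh KO for 16 of 16, 14 without overlap (background 23.5%) and 12 at an unadjusted p under 0.05 (background 6.89%), with a median of -0.30. The part of these and of the marker differences in the chaperone values was not tested.

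In cultured RhoA-null cells, differences from control were no more frequent among the chaperones than among all probe sets. Of 130 member probe sets 0 were called by limma, against 62 of 22682 over all (0.273%). At an unadjusted p under 0.05, 6 members were higher (4.62%, background 7.16%) and 10 lower (7.69%, background 8.49%). KO and control did not overlap for 8 higher (6.15%, background 10.1%) and 13 lower members (10%, background 12.2%). Differences were above 0 for 58 members (44.6%, background 47.2%) and below for 72 (55.4%, background 52.8%), with a median of -0.01, equal to that over all probe sets tested. Apart from the count below 0, these shares were at or below the background.

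Among the 5 genes of smallest p above 0 in culture, Hspb1 had both of its probe sets without overlap. Cultured controls read 40324, 29235 and 29354 and KO 46188, 42733 and 46187. All KO arrays lay above all controls, control replicate 1 being nearest (1.38-fold, log2 0.47, SE 0.13, limma adjusted p = 0.204). Its other probe set read 35813, 26582 and 28576 against 41779, 38159 and 40794 (log2 0.42, SE 0.12, limma adjusted p = 0.192). Dnajb6, a J-protein that holds back aggregation, read 656, 629 and 621 against 771, 786 and 783 on 1 probe set (log2 0.30, SE 0.07, limma adjusted p = 0.161). There KO was higher with tight groups, but the brightest probe set of this gene was at -0.05. Dnajc7, a J-protein linking HSP70 and HSP90, read 3145, 3091 and 3198 against 3485, 3539 and 3477 (log2 0.15, SE 0.05, limma adjusted p = 0.232). Dnajb9, an ER J-protein induced by unfolded protein, read 2544, 4270 and 3029 against 5275, 4869 and 3892, with overlap (log2 0.53, SE 0.22, limma adjusted p = 0.317). Dnajb14, another ER membrane J-protein, read 65.5, 79.3 and 78.9 against 106, 105 and 79.9 (log2 0.37, SE 0.16, limma adjusted p = 0.336), and its lowest KO array was barely above the highest control.

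Lower values in culture were those of Hspb6, Hspa4l, Dnajc21, Dnajb11 and Hsph1. Hspb6, a small heat shock protein of muscle, read 104, 62.7 and 76.9 in controls and 28.5, 38.8 and 42.1 in KO. No KO array reached a control (log2 -1.15, SE 0.24, limma adjusted p = 0.131), and Hspb6 was called in the 10-array fit (adjusted p = 0.0304), the 1 of 130 members called there (0.769%, background 2.41%). Hspa4l had all 5 of its probe sets below 0, from -0.16 to -0.66, the lowest reading 487, 432 and 511 against 258, 350 and 304 (SE 0.14, limma adjusted p = 0.142). In fresh cells 4 of these 5 were above 0. Dnajc21, a cytosolic J-protein of ribosome maturation, read 1479, 830 and 1204 against 756, 617 and 627 (log2 -0.78, SE 0.22, limma adjusted p = 0.204). Dnajb11, an ER partner of BiP, read 3747, 3866 and 3674 against 3381, 3028 and 2663 (log2 -0.32, SE 0.10, limma adjusted p = 0.216). Hsph1 read 3093, 3266 and 3157 against 2747, 2924 and 2880 (log2 -0.15, SE 0.06, limma adjusted p = 0.280). In each of these the groups were apart. Fibroblast markers summed to 99.5 to 140 in cultured controls and 226 to 416 in cultured KO. Higher in KO were Fbln2 (28.8 to 31.0 against 79.8 to 218) and Vim (23.1 to 65.0 against 71.95 to 145). Col1a1, Col1a2, Col3a1, Dcn and Lum read 3.96 to 7.07 in both genotypes, and Pdgfra overlapped. Melanocyte markers summed to 397 to 615 in cultured controls and 563 to 1456 in cultured KO, with overlap. The part of these markers in the chaperone values was not tested.

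Other main chaperones of the cultured cells lay close to 0. Hsp90aa1 was at 0.01 (SE 0.03), Hspa8 at 0.06 (SE 0.04), Hspa9, the mitochondrial HSP70, at 0.00 (SE 0.05), Hspd1, the HSP60 chaperonin, at 0.02 (SE 0.04) and Hspe1, its co-chaperonin, at -0.03 (SE 0.05). Dnajb1 was at 0.04 (SE 0.07), Dnaja1 at -0.02 (SE 0.06), Hspa1b at -0.07 (SE 0.10) and Hspa1a at -0.14 (SE 0.14). Hspa5, the ER HSP70 also called BiP, was at 0.02 (SE 0.13) and Hsp90b1, the ER HSP90, at -0.14 (SE 0.11). Those ER values had a wide spread between KO arrays: Hspa5 read 51396, 53693 and 49164 in controls and 63908, 49594 and 44993 in KO replicates 1, 2 and 3. The KO arrays thus reached both above and below the controls.

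**Figure D2:**
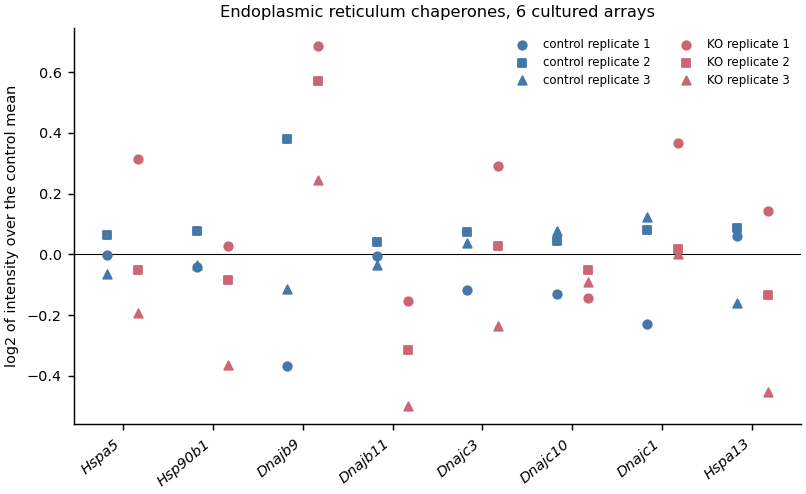
Log2 of the intensity over the control mean (vertical axis) for the 8 genes of the ER list on each of the 6 cultured arrays, blue for control and red for KO, with circles, squares and triangles for replicates 1, 2 and 3. KO replicate 1 is the highest and replicate 3 the lowest KO array for Hspa5, Hsp90b1, Dnajb9, Dnajb11, Dnajc3, Dnajc1 and Hspa13, and for Dnajb11 all KO arrays lie below the controls.

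Cultured and fresh cells differed in their KO effect for 2 member probe sets of 119 tested in both (1.68%), against 1.95% of all 18773, at a limma adjusted p under 0.05. Both differences, the cultured log2 effect minus the fresh one, were positive, a direction called for 0.799% of all, while 0 members and 1.16% of all were called in the other. At an unadjusted p under 0.05, 16 members had a positive difference (13.4%, background 7.85%) and 13 a negative one (10.9%, background 11.1%). For Dnajb1 the effect was 0.04 in culture and -0.45 in fresh cells, a difference of 0.48 (SE 0.09, adjusted p from the combined limma errors 0.0306). The scales of the conditions differ, so a log2 unit may not mean the same on both. For Hspb1 (probe set at 0.42 in culture) the effect was 0.42 and -0.15. The difference was 0.57 (SE 0.13, adjusted p from the combined limma errors 0.0456), and 0.63 (SE 0.14, 0.0514) on its other probe set. All adjusted p-values of differences used such combined errors and a t distribution with the summed degrees of freedom of both fits. Where 1 condition holds most of the error, as culture does for Hspb1, that sum makes a call easier. Other degrees of freedom were not tried. Next in p were Dnaja4 at 0.80 (limma adjusted p = 0.0683), Hspb6 at -1.09 (0.0696), Hspa4l at -0.85 (0.0973), Hsp90aa1 at 0.83 (0.105) and Dnajb9 at 0.78 (0.111), none of which passed. The Hspa4l and Hsp90aa1 values were those of the gene's probe set with the smallest p, not of its brightest. For Hsp90aa1 this was the probe set with the low array in fresh KO replicate 2.

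Both calls depended on single arrays and on the fit. Without the variance trend both were lost (limma adjusted p = 0.102 for Dnajb1 and 0.111 for Hspb1), and Hspb1 was also lost without the filter (0.0511) and in the 10-array fit (0.0502). By array, Dnajb1 was lost without cultured control replicate 3 (limma adjusted p = 0.0699), cultured KO replicate 2 (0.0712), fresh control replicate 1 (0.0750) or 2 (0.179) or fresh KO replicate 2 (0.0660), and Hspb1 without any array but cultured control replicate 1 (0.00420) and fresh KO replicate 1 (0.0158), with up to 0.143. Without fresh KO replicate 1 the count of members was 18 (15.1%, background 8.68%), 17 of them positive, and without cultured control replicate 2 it was 5 (4.2%, background 2.42%). It was 0 without cultured control replicate 3, cultured KO replicate 2, either fresh control or fresh KO replicate 2, and 1 without cultured KO replicate 1 or 3.

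**Figure D3:**
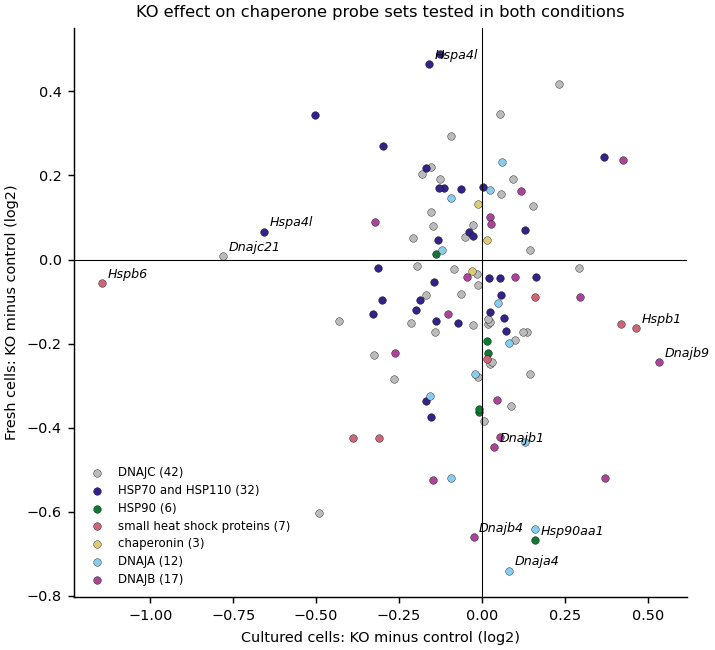
KO minus control (log2) in cultured cells (horizontal axis) and in fresh cells (vertical axis) for the 119 member probe sets tested in both conditions, coloured by family with the number of probe sets in the key. Hspb1 lies at 0.47 and -0.16, Dnajb1 near 0 in culture and at -0.45 in fresh cells, and Hspb6 at -1.15 in culture and near 0 in fresh cells.

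By rank within the array, small heat shock probe sets and the brightest probe sets of heat-inducible genes mostly lay higher in fresh cells. Chaperonin, HSP90 and mitochondrial probe sets mostly lay higher in culture. A rank here is the percentile of a probe set among all probe sets of the same array. Limma called 124 of 141 member probe sets between the conditions (87.9%), but also 90% of all 26802, so a call says little about a member. Processing and condition cannot be told apart in this comparison. Among the 117 member probe sets above the median on all 10 arrays, a limit set after the values were seen, 37 ranked higher in every fresh array than in any cultured one (31.6%, background 36.8%), 51 ranked higher in culture (43.6%, background 40.2%) and 29 overlapped. Shifts of at least 10 percentile points were seen for 14 higher in fresh (12.0%, background 13.3%) and 12 higher in culture cells (10.3%, background 14.8%).

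Heat-inducible genes ranked higher in fresh cells in 7 of 10 cases (background 36.8%), with a median percentile of 99.3 in fresh and 95.6 in cultured arrays. Over all 29 probe sets of the list above the median, 15 ranked higher in fresh cells, 8 in culture and 6 overlapped. Hspa1a lay at percentile 99.6 to 99.7 in fresh and 83.1 to 85.7 in cultured arrays, where it read 814 to 1161. Dnajb1 lay at 99.5 to 99.7 and 93.7 to 94.3, and Hspb8 at 97.9 to 98.7 and 84.7 to 88.8. Fresh and cultured ranges of these were well apart. The 3 Hspa1b probe sets, which may read Hspa1a as well, also ranked higher in fresh cells but read higher than Hspa1a in culture. Immediate early genes ranked higher in fresh cells in 15 of 15 measured above the median, with median percentiles of 99.6 and 87.2, and their relation to the chaperone ranks was not tested. The 3 heat-inducible genes that ranked higher in culture were Hsp90aa1, at 99.8 against 99.3 to 99.5, Hspa8, at 99.9 or above against 99.0 to 99.2, and Hspa4l, at 87.2 to 88.9 against 73.1 to 79.3.

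Small heat shock proteins also ranked higher in fresh cells in 6 of 7 probe sets (background 36.8%), the exception being Hspb6. Most of these were probe sets of Hspb1 and Hspb8, which are also on the heat-inducible list, and the last was of Hspb11, grouped here by symbol alone. Hspb1 lay at 99.9 or above in fresh and 99.2 to 99.6 in cultured arrays. Hspa2 and Dnajb2 were chosen after their values were seen. Hspa2, an HSP70 known from spermatogenesis, read 695, 789, 739 and 1039 in fresh cells, at percentile 85.3 to 89.9, and lay at 63.5 to 67.2 in culture. Dnajb2, a J-protein with ubiquitin-binding motifs, had mean percentiles of 89.3 and 77.0.

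Most mitochondrial and HSP90 probe sets ranked higher in culture, as did 11 of 20 on the ER list. Of all probe sets above the median on every array, 40.2% ranked higher in culture and 36.8% in fresh cells. The lists overlap, as Hspd1 and Hspe1 count as chaperonin and mitochondrial and Hsp90b1 as HSP90 and ER. All 3 chaperonin probe sets did, with Hspd1 at 99.4 against 97.6 to 98.3 and Hspe1 at 98.7 to 98.8 against 94.0 to 94.8. Among the mitochondrial members 9 of 12 probe sets ranked higher in culture and 1 in fresh cells, and Hspa9 lay at 99.1 to 99.2 against 93.0 to 94.8. HSP90 probe sets ranked higher in culture in 5 of 6, with Hsp90b1 at 99.3 to 99.6 against 96.8 to 97.6. Of the ER list, 3 of 20 probe sets ranked higher in fresh cells and 6 overlapped, with Hspa5 at 99.6 to 99.9 against 99.2 to 99.3 and Dnajb11 at 91.7 to 93.7 against 86.5 to 87.9. Dnajb9 went the other way, at 91.4 to 95.1 in culture and 95.8 to 96.7 in fresh cells. Dnajc9, a histone chaperone with a J-domain, lay at 93.9 to 95.1 in culture and 86.8 to 89.2 in fresh cells.

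**Figure D4:**
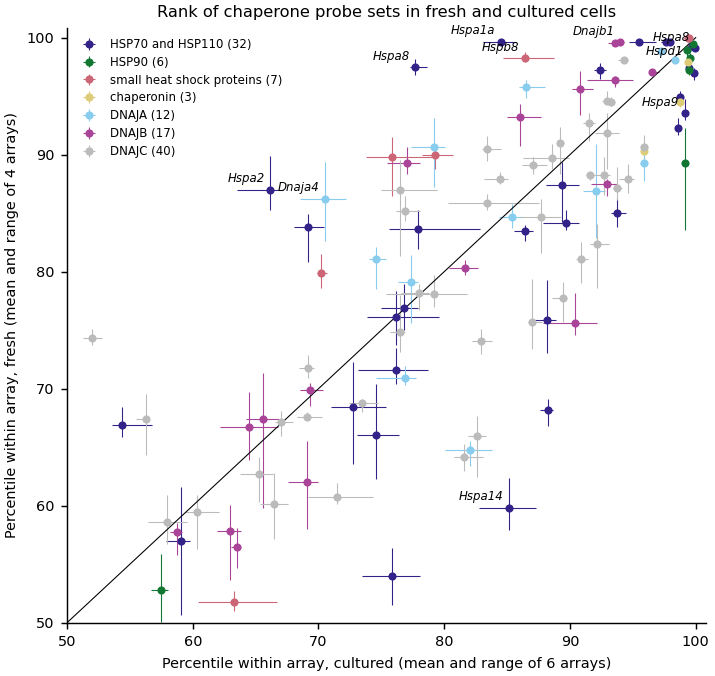
Percentile within the array in cultured cells (horizontal axis) and in fresh cells (vertical axis) for the 117 member probe sets above the median on all 10 arrays, coloured by family. Points are means and bars the range over 6 cultured and 4 fresh arrays, and the line marks equal percentiles. Hspa1a, Hspb8, Hspa2 and 1 Hspa8 probe set lie well above the line, and Hspa14 well below it.

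The largest percentile differences over all members came mostly from probe sets near the floor of 1 scale, where ranks are set by small values. Toward fresh cells these were Dnajb3, Dnajb8, Dnajb13, Dnajc6, Dnajc11 and Dnajc28 and a pair of probe sets each of Dnajc18 and Hspa12a; Dnajb8, for example, read 56.7, 65.1, 55.0 and 68.7 in fresh and 3.84 to 3.92 in cultured cells. Toward culture they were probe sets of Dnajc1, Dnajc2, Dnajc5, Dnajc6, Dnajc17, Dnajc21, Dnajc24, Hspa13, Hspa14 and Hspb11. Dnajc2 read 17.1 to 18.5 in fresh and 8.09 to 9.70 in culture and yet ranked at 6.6 to 9.2 and 51.0 to 54.0, which shows how the scales move such ranks. Hspa14, a ribosome-associated HSP70, was clear of the floor, with 96.8 to 129 in fresh (percentile 58.0 to 62.4) and 829 to 1387 in culture (82.8 to 87.3). In the exact permutation test of 4 fresh against 6 cultured arrays, 134 of 169 member probe sets (79.3%, background 83.1%) reached 0.00952, the smallest p that its 210 assignments allow.

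Probe sets of a gene did not always go together. Of 36 genes with several probe sets above the median on all arrays, 8 had probe sets ranked on both sides: Dnaja1, Dnaja2, Dnajc5, Dnajc8, Dnajc10, Dnajc16, Hspa4 and Hspa8. For Hspa8, 1 probe set read 3865, 2972, 3259 and 4443 in fresh cells and 430 to 517 in culture, while the other 3 read 2683 to 9335 in fresh and 48342 to 77927 in culture. For the HSP70 pair, the Hspa1a probe set read 14367 to 16647 in fresh and 814 to 1161 in cultured cells. The 3 Hspa1b probe sets read 12889 to 17457 in fresh and 4796 to 15160 in culture. KO effects lay on both sides of 0 for 16 of 37 genes in culture (Dnajb4, Dnajb5, Dnajb6, Dnajb14, Dnajc1, Dnajc2, Dnajc3, Dnajc5, Dnajc8, Dnajc16, Dnajc17, Hsp90aa1, Hspa8, Hspa9, Hspa14 and Hspb8) and for 15 of 38 in fresh cells (Dnaja2, Dnajb5, Dnajb6, Dnajb12, Dnajc2, Dnajc14, Dnajc21, Hsp90b1, Hspa4, Hspa4l, Hspa8, Hspa9, Hspa12a, Hspa13 and Hspe1).

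**Figure D5:**
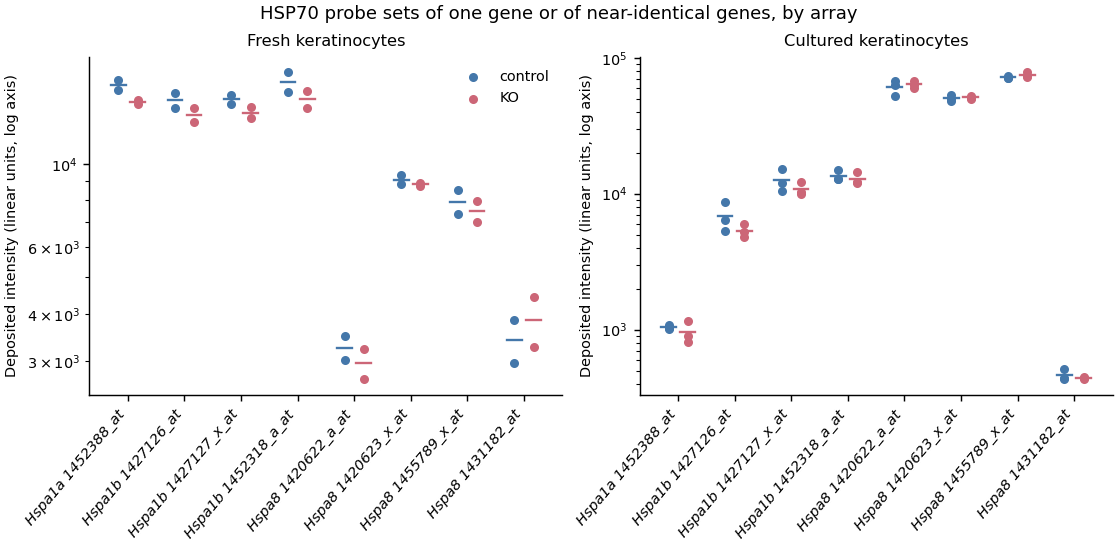
Deposited intensity (linear units on a log axis) of the Hspa1a, Hspa1b and Hspa8 probe sets on each array, fresh on the left and cultured on the right, blue for control and red for KO, with short lines at the group means. The Hspa1a probe set is near the Hspa1b ones in fresh cells and below them in culture, and 1 Hspa8 probe set lies far below the other 3 in culture.

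Partners of the chaperones gave 0 calls in either KO comparison. Of 13 HSP70 nucleotide exchange factors and cofactors, 1 was lower at an unadjusted p under 0.05 in culture (background 8.49%) and 2 in fresh cells (background 6.89%). Stub1, the ubiquitin ligase CHIP, was at -0.30 in culture (SE 0.09, limma adjusted p = 0.236), followed by Grpel1 at 0.18, and Bag3, an HSF1 target that serves Hspb8, at -0.30 in fresh cells (SE 0.09, limma adjusted p = 0.328), followed by Grpel2 at -0.28. Of 16 HSP90 cochaperones tested, 5 were lower and 3 higher at that level in culture and 1 lower and 3 higher in fresh cells, where the backgrounds were 8.49% and 7.16% in culture and 6.89% and 6.01% in fresh cells. Fkbp5, an immunophilin of steroid receptor complexes, read 2531, 1768 and 2046 in cultured controls and 1136, 1135 and 1195 in KO, without overlap (log2 -0.86, SE 0.14, limma adjusted p = 0.0970), and 323 and 338 against 503 and 445 in fresh cells (log2 0.52, SE 0.12, limma adjusted p = 0.289). Aarsd1 was at -0.44 in culture (limma adjusted p = 0.113) and 0.38 in fresh cells (0.346). The directions were opposite, and the difference of the KO effect passed for both, at -1.38 (SE 0.19, limma adjusted p = 0.00901) for Fkbp5 and -0.82 (SE 0.15, limma adjusted p = 0.0260) for Aarsd1. The TRiC chaperonin and prefoldin, which fold actin and tubulin, had 12 of 14 members above 0 in fresh KO (background 49.9%), 11 without overlap (background 23.5%), but 2 at an unadjusted p under 0.05 (Pfdn6 at 0.33 and Cct2 at 0.23); in culture 8 of 14 were above 0 with 0 at that level, led by Cct3 at 0.09 and Pfdn6 at 0.12.

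For the unfolded protein response, 2 of 17 genes were higher at an unadjusted p under 0.05 in culture (background 7.16%). In fresh cells 1 was higher (background 6.01%) and 3 lower (background 6.89%) at that level. Most of the list, 12 of 17 genes, was below 0 in cultured KO (background 52.8%), with a median of -0.09. Ddit3, the stress factor CHOP, read 282, 437 and 366 in cultured controls and 1290, 674 and 533 in KO, with KO replicate 1 far above the rest (log2 1.12, SE 0.36, limma adjusted p = 0.237). Trib3, a CHOP target, read 1645, 2177 and 1908 against 4238, 3577 and 2700 (log2 0.86, SE 0.19, limma adjusted p = 0.143). In fresh cells Ddit3 read 1007 and 1072 against 689 and 680 (log2 -0.60, SE 0.10, limma adjusted p = 0.249). The difference of its KO effect, 1.72, passed (SE 0.37, adjusted p from the combined limma errors 0.0416) with the summed degrees of freedom. Most of that error came from the cultured fit (SE 0.36), which makes such a call easier. In fresh cells Atf4 was at -0.19. Cryab, an alpha-crystallin of the small heat shock family, read 435 and 863 in fresh controls and 218 and 189 in KO (log2 -1.60, SE 0.33, limma adjusted p = 0.276), and was at -0.39 in culture (limma adjusted p = 0.365). Of the heat shock factor list, Hsf2 was tested in fresh cells only, at -0.31 (limma adjusted p = 0.519), and Hsbp1, a negative regulator of HSF1, was at 0.28 in fresh (limma adjusted p = 0.380) and 0.20 in cultured cells (0.590).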

How the data were processed

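RNA of 4 fresh and 6 cultured keratinocyte samples was hybridised to Affymetrix mouse 430 2.0 arrays, per the labels' protocols. The deposited table holds 1 linear intensity per probe set and array, which the authors made with MAS5 per the submitters' processing notes. Which version and settings were used is not stated by the sources. Arrays carry no read depth, and their number, 2 or 3 per group, limits the precision. No array had the same values as another.

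The log2 of each intensity was taken without an offset. Within each condition, probe sets exceeding the array median on 2 or more of its arrays were tested 2-sided with limma 3.58.1 in R 4.3.3 (lmFit, and eBayes with its mean-variance trend), with Benjamini-Hochberg adjustment over all probe sets tested at 0.05. The difference of the KO effects was tested from both fits with combined moderated errors and the summed degrees of freedom of both. Fresh and cultured arrays were compared on normal scores of the rank within each array and by exact permutation. Each fit was run on simulated data. For the rank and difference fits these held equal noise and no scale difference between conditions, unlike the arrays here. Symbols came from the platform annotation, matched through Entrez identifiers. Of all probe sets, 34945 had 1 symbol, 932 several and 9160 were unnamed here; the latter could not be members, and the Dnajc19 and Hsp90ab1 genes were not analysed here.

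Members and gene lists were chosen with earlier results of these data known. Named members were those called, otherwise the 5 of smallest p per direction, 14 main chaperones, the 10 largest rank differences in each direction and genes whose probe sets disagreed. Of each partner list, the 2 genes with the smallest p were named. Any other member is named as chosen after seeing its values. Alternatives covered the filter, variance trend, centring, quantile normalization, an offset of 16, array weights, a replicate block, 1 fit over all arrays, averaging the probe sets of a gene and leaving out each array.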

Additional observations from a re-analysis of the deposited data

Results flagged for a closer look

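The KO effect differed between cultured and fresh cells for 2 member probe sets, tested as the difference itself from both limma fits. Their degrees of freedom were summed, which makes a call easier where 1 condition holds most of the error. The conditions lie on different scales, so a log2 unit may not mean the same in both. For Dnajb1, the stress-induced J-protein, it was 0.48 higher on the log2 scale in culture (limma adjusted p = 0.0306). For 1 of the 2 probe sets of Hspb1, which encodes HSP27, it was 0.57 higher in culture (limma adjusted p = 0.0456).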

How the results depend on the processing

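The members called depended on single arrays and on how the variance was estimated. In culture the count of 0 became 1 (Hspb6) in the 10-array fit and ranged from 0 to 1 with an array left out, the 1 being Hspb1 without control replicate 1. In fresh cells the count of 0 became 2 in the 10-array fit and ranged from 0 to 15 with an array left out. The 2 differences of the KO effect became 0 without the variance trend and ranged from 0 to 18 with an array left out. The cause of these shifts was not tested. The rank count of 124 ranged from 102 to 150, and the 142 members with an exact permutation p under 0.05 from 139 to 143. Whether replicate numbers pair the samples could not be decided from the values. Same-numbered cultured arrays correlated at 0.322, 0.0809 and 0.249 in their deviations, and differently numbered ones at -0.300 to 0.172. The highest of the latter was control replicate 2 with KO replicate 3. Same-numbered fresh arrays correlated at -0.0548, but with 2 arrays per group all fresh correlations have the same size. With a replicate block 0 members were called in culture and 0 in fresh cells, 3 in the difference and 121 by rank, and the block moved all cultured calls from 62 to 17 and all called differences from 367 to 555. Over all probe sets, the 62 cultured calls were 2 without the filter, 7 without the trend, 128 with 75th percentile centring, 299 with array weights, 547 in the 10-array fit and 0 to 95 with an array left out. The fresh 0 became 447 in the 10-array fit and 0 to 945 with an array left out, and the differences were 625 and 28 to 1613. Values near 0 turned sign. In culture Hspa5 was at -0.0497 and Hspd1 at -0.0172 with array weights, and Hspd1 at -0.0109 with quantile normalization, as was Hsp90b1 at -0.00565 in fresh cells. With an array left out, cultured values ranged from -0.121 to 0.132 for Hspa5, -0.0706 to 0.0121 for Dnaja1, -0.000995 to 0.0783 for Dnajb1, -0.0207 to 0.0420 for Hspa9, -0.0131 to 0.0440 for Hspd1, -0.0468 to 0.00293 for Hspe1 and -0.157 to 0.00290 for Hspa1b, and fresh values from -0.139 to 0.165 for Hsp90b1, -0.134 to 0.227 for Hspd1, -0.0957 to 0.0397 for Hspe1 and -0.190 to 0.0234 for Hspa8. Array number, 2 or 3 per group, and signals near the floor limit what these comparisons can show.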

Other observations

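Endoplasmic reticulum chaperones varied together among the cultured KO arrays, a pattern noticed after the values were seen. KO replicate 1 was the highest and replicate 3 the lowest of the 3 KO arrays for 14 of 22 tested probe sets of the 8-gene ER list (63.6%), against 32 of 130 over all members (24.6%) and 16.5% of all probe sets tested. Hspa5, the ER HSP70, read 63908, 49594 and 44993 on KO replicates 1, 2 and 3, and Hspa13, another ER HSP70, read 2277, 1878 and 1506. Hsp90b1, the ER HSP90, read 40503, 37464 and 30876, and Dnajc3, an inhibitor of the PERK kinase, read 4049, 3376 and 2815. The same order was seen for Ddit3 (1290, 674 and 533) and Trib3 (4238, 3577 and 2700), which belong to the unfolded protein response. Replicates have no order, and the labels give no batch for these arrays.

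Members of testis and muscle, 13 genes with 15 probe sets, were mostly outside the filter: 4 probe sets were tested in culture and 5 in fresh cells, and 2, those of Hspa2 and Hspb6, lay above the median on all 10 arrays.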
